A study of Mus musculus with 10 samples.

Results

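The ribosome of the cytosol is built from a small and a large subunit, and each subunit joins ribosomal RNA with a set of ribosomal proteins, most of which have a single functional gene in the mouse. The genes of ribosomal proteins are highly transcribed in most cells, and cells make their products in near-equal numbers. Most of their mRNAs begin with a run of pyrimidines (the 5′ TOP motif), through which mTOR and the RNA-binding protein LARP1 set how strongly the mRNAs are translated.

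Described here are the ribosomal protein genes of the cytosol in liver RNA-seq of diabetic mice. They were chosen by name: symbols that start with *Rpl*, *Rps* or *Rplp* and a number, together with *Rpsa*. The S6 kinase genes and *Rps19bp1*, whose names start alike, were left out. This gave 87 of the 15126 genes listed. Of these, 46 encode proteins of the large subunit with its P stalk and 31 encode proteins of the small subunit. Another 7 are close relatives of a subunit gene (*Rpl3l*, *Rpl7l1*, *Rpl22l1*, *Rpl36al*, *Rpl39l*, *Rps27l* and *Rps27rt*), and 3 carry names of pseudogene form (*Rpl10-ps3*, *Rpl7a-ps3* and *Rpl9-ps6*). *Fau* and *Rack1* also encode ribosomal proteins but have other names, and are given separately.

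The mice were *db/db*, a leptin receptor-deficient strain that becomes obese and diabetic, and were 10 weeks old. All were injected through the tail vein with adeno-associated virus of serotype 8 (AAV8), a vector that reaches mainly hepatocytes, and livers were taken 5 weeks later. The 5 AAV8-Control mice received a vector for eGFP and the 5 other mice, called AAV8-Test here, a vector for a transgene that is not reported here. The controls thus carried *db/db* and a vector as well. The promoter of the vectors is not given in the sources used here. Each library was taken as a separate mouse, which the labels do not state. The labels name liver as the tissue, but also primary hepatocytes as the cell type and an adenovirus treatment of cultured cells, which the study's text does not describe for these samples.

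The libraries held 19499795 to 35498596 reads counted on genes, so 1 read was worth 0.0282 to 0.0513 CPM, the unit in which a gene is scaled to all reads counted in its library. The 6 hepatocyte markers summed to 91148 to 125100 CPM in the controls and 99175 to 116229 CPM with AAV8-Test, most of it *Alb*. *Cps1* was at 2269 ± 361 and 2849 ± 507 CPM and *Hnf4a* at 618 ± 67.1 and 726 ± 87.2 CPM (SD over 5 livers a group). These were the 2 of the 6 with an unadjusted p under 0.05 (adjusted p = 0.617 in limma for both). Of all genes tested, 4.99% were higher in AAV8-Test at an unadjusted p under 0.05. *Ttr* was at 7609 ± 888 and 6373 ± 964 CPM and *Apoa1* at 1012 ± 263 and 776 ± 366 CPM. The part of these differences in the results below was not tested. Markers of other cells were low beside this: the 6 macrophage markers summed to 92.7 to 187 CPM and 94.8 to 151 CPM, and the 6 stellate cell markers to 237 to 318 CPM and 218 to 301 CPM. Nearly all of the B cell sum came from *Cd74*, which was at 44.9 to 145 CPM in the controls and 37.7 to 56.5 CPM in AAV8-Test. Endothelial markers summed to 82.7 to 166 CPM and 103 to 143 CPM, erythroid markers to 262 to 327 CPM and 195 to 484 CPM, and cholangiocyte markers to 6.43 to 11.1 CPM and 5.77 to 7.99 CPM. T and NK cell, neutrophil and adipocyte markers each summed to under 3 CPM in every library. *Lep* was at 0 in all AAV8-Test libraries and at 0 to 0.103 CPM in the controls, with a control mean of 0.0205 CPM. In a whole liver, fewer cells of a type and less RNA per cell cannot be told apart.

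Windows near the start sites of the genes on which the results below turn are shown first, since pyrimidine runs at the start are the feature by which these mRNAs are known. Each window is 30 bases of the gene's own strand, read 5′ to 3′ from the RefSeq promoter sequences of GRCm38.p6. Capitals mark the longest unbroken run of C or T within 50 bases either side of the annotated start, or the first of those that tie. In *Rps27l* another run of equal length follows the marked one in small letters.
*Rpl4* (chr9:64173406-64173435, + strand): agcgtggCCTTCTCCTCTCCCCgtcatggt
*Rplp0* (chr5:115559467-115559496, + strand): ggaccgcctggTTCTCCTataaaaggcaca
*Rps6* (chr4:86857349-86857378, - strand): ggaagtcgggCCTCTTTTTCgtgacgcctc
*Rps15a* (chr7:118116143-118116172, - strand): gcccggcccaCTCTCTTTCTgccatcttcc
*Rpl22* (chr4:152325679-152325708, + strand): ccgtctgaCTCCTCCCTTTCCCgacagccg
*Rps27l* (chr9:66946054-66946083, + strand): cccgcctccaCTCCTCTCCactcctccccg
*Rpl27* (chr11:101442194-101442223, + strand): tcatcctcgCTCCTCCCTCCacacgccgga

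The run was 15 bases long in *Rpl4*, 14 in *Rpl22*, 11 in *Rpl27*, 10 in *Rps6* and *Rps15a*, 9 in *Rps27l* and 7 in *Rplp0*. Relative to the annotated start, the run began at -1 in *Rps6*, 11 in *Rplp0* and 26 in *Rpl4*. It began at -15 in *Rps15a*, -22 in *Rps27l*, -39 in *Rpl22* and -42 in *Rpl27*, and in these 4 genes it also ended before the annotated start. In GENCODE M21 the run of *Rps15a* lies within the gene, whose start is annotated farther upstream there, and those of the other 3 lie outside it. Of the 87 genes, 64 matched a symbol of the promoter table, and 53 of these (82.8%) had a run of at least 8 pyrimidines, against 39.3% of all 27025 symbols there. The longest run, of 21 bases, was that of *Rpl7a*. A run in these windows is a description of the letters and not a mapped start of transcription.

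The level of these genes covered a very wide range. Per length of the transcript, in CPM per kilobase (kb), the 77 subunit genes ran from 0.213 for *Rpl23a* to 226 for *Rplp1*, with a median of 15.1. The 3 highest were *Rplp1*, a protein of the P stalk that binds elongation factors, at 226 CPM per kb, *Rpl8*, a protein near the catalytic centre, at 225 CPM per kb, and *Rpl4*, which lines the exit tunnel, at 220 CPM per kb. Before division by length, *Rpl4* was highest, at 359, 350, 378, 322 and 328 CPM in the controls and 330, 350, 355, 310 and 304 CPM in AAV8-Test. At the other end, 11 subunit genes had a mean under 1 CPM, among them *Rps6*, the substrate of S6 kinase, and *Rpsa*, the laminin receptor protein of the small subunit.

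*Rps6* read 0.769, 0.722, 0.563, 0.948 and 0.628 CPM in the controls and 0.484, 0.383, 0.795, 1.06 and 1.03 CPM in AAV8-Test, which is 10 to 26 reads per library. The AAV8-Test libraries spanned the control range at both ends. *Rpsa* read 0.513, 0.578, 0.817, 0.620 and 0.773 CPM in the controls and 0.748, 0.689, 0.502, 0.231 and 0.702 CPM in AAV8-Test. Here the groups overlapped, with AAV8-Test replicate 4 lowest at 5 reads.

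Such low readings stood beside a property of the sequences. The authors counted reads of 50 bases that aligned to a single place, and many ribosomal protein mRNAs have pseudogene copies in the genome. The share of a transcript's stretches of 50 bases that occur in no other annotated gene was therefore computed, as the own share. It was 1.35% for *Rps27*, 6.16% for *Rpl5*, 15.4% for *Rps6*, 83.5% for *Rpl4* and 92.1% for *Rpl8*. The 19 subunit genes with an own share under 20% had a median of 2.57 CPM per kb and none exceeded 23.3. The 37 genes from 20 to 60% had a median of 15.8 CPM per kb, and the 21 genes with 60% or more a median of 73.3 CPM per kb. Over the 77 subunit genes, which share libraries, Spearman's rho of own share and CPM per kb was 0.55. The order was not strict, since *Rplp1* was highest with an own share of 40.0%, while *Rpsa* stood at 0.386 CPM per kb with 46.3%, and *Rps29*, a small zinc-binding protein, at 1.02 CPM per kb with 64.2%. The reference holds annotated genes only, so pseudogenes outside the annotation were not seen.

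**Figure D1:**
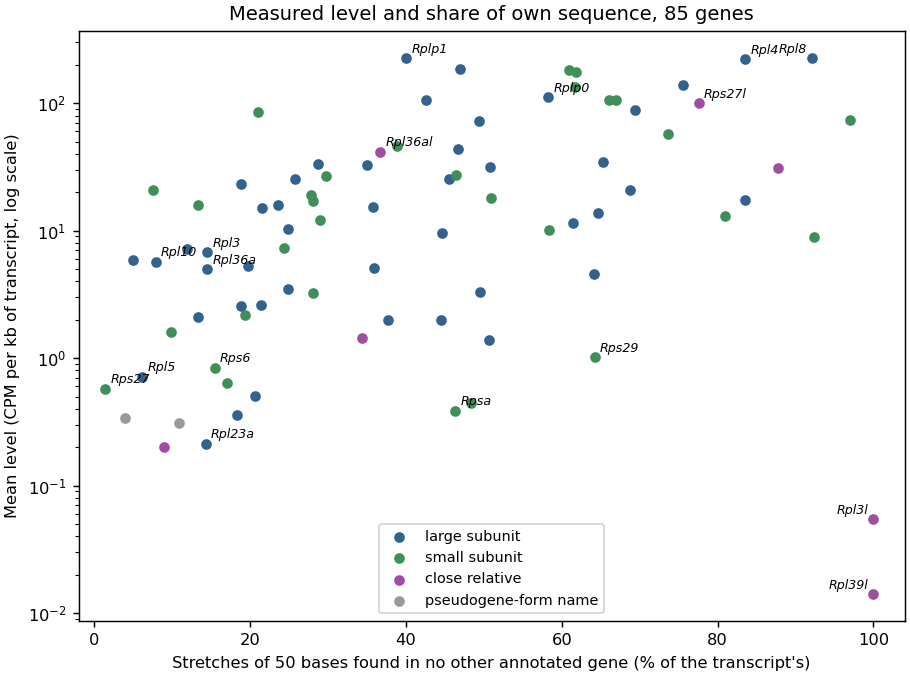
Mean level of 85 ribosomal protein genes over 10 libraries, in CPM per kb of transcript on a log axis, against the share (%) of the transcript's 50-base stretches found in no other annotated gene; each point is a gene, coloured by subunit or kind. Genes with an own share under 20% lie at or below 23.3 CPM per kb, and *Rpl3l* and *Rpl39l*, with 100% own sequence, are the lowest points.

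The pairs of a subunit gene and its close relative were read at unlike levels. *Rps27* and *Rps27l* encode closely similar zinc finger proteins of the small subunit, and their coding sequences were the same at 194 of 255 bases (76.1%). *Rpl36a* and *Rpl36al* were the same at 282 of 321 bases (87.9%). The first 60 coding bases of each pair, from the GENCODE M21 transcripts, are printed with the bases that differ in capitals.
*Rps27*: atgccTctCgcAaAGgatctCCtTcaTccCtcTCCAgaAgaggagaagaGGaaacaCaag
*Rps27l*: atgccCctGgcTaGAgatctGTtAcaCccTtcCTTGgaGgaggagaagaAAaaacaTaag
*Rpl36a*: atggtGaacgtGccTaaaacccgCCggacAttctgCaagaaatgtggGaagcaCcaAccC
*Rpl36al*: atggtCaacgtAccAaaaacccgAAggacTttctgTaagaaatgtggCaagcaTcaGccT

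Between these coding sequences, 18 of the first 60 bases differed in the *Rps27* pair and 11 in the *Rpl36a* pair. The genes of a pair were thus alike but not identical along this stretch. *Rps27* was read at 3 to 6 reads per library, with 0.154, 0.289, 0.113, 0.219 and 0.290 CPM in the controls and 0.176, 0.230, 0.125, 0.139 and 0.248 CPM in AAV8-Test. Stretches of its transcript occurred in 8 annotated pseudogenes. *Rps27l* was read at 53.8, 50.5, 51.0, 55.7 and 52.1 CPM in the controls and at 49.6, 51.6, 47.0, 45.3 and 40.6 CPM in AAV8-Test. Its highest AAV8-Test library lay within the control range and the other 4 lay below every control. *Rpl36a* was at 2.51 ± 0.31 CPM in the controls and 2.30 ± 0.17 CPM with AAV8-Test, and *Rpl36al* at 23.3 ± 2.33 and 20.5 ± 2.94 CPM (SD over 5 livers a group), with own shares of 14.5% and 36.7%. Per length these are 4.99 and 41.7 CPM per kb over all libraries.

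In the other pairs the relative was the lower gene or near it. *Rpl3l*, the muscle form of *Rpl3*, had 0 to 4 reads per library, and *Rpl39l*, the germ cell form of *Rpl39*, had 0 or 1, although the whole of both transcripts is own sequence. *Rpl3* was at 6.79 CPM per kb with an own share of 14.4%, and *Rpl39* at 17.4 CPM per kb with 83.5%. *Rpl22l1* was at 1.44 CPM per kb beside 139 CPM per kb for *Rpl22*, whose protein is dispensable for general translation. *Rpl7l1*, a factor of subunit assembly, was at 31.2 CPM per kb and *Rpl7* at 43.4 CPM per kb. The 3 genes with names of pseudogene form and *Rps27rt* had at most 11 reads in any library. *Rpl10* and *Rps4x*, whose relatives are not analysed here, were at 5.72 and 18.9 CPM per kb.

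The groups were then compared. The 87 genes summed to 2916, 2871, 2826, 2495 and 2619 CPM in AAV8-Control and to 2549, 2718, 2929, 2475 and 2284 CPM in AAV8-Test, that is 0.228 to 0.293% of the counted reads. The groups overlapped over most of their range: in CPM, AAV8-Test replicate 3 was the highest of the 10 libraries and AAV8-Test replicate 5 the lowest, while AAV8-Control replicate 4 was the lowest control. The means were 2745 ± 180 CPM and 2591 ± 245 CPM (SD over 5 livers a group). The difference was -5.61% of the control mean, which in CPM is smaller than the SD of either group. It was -6.73% with the size factors of DESeq2, -6.93% with TMM scaling and -6.11% when mitochondrially encoded genes were left out of the total, so the direction did not turn with the scaling. Under all 3 the difference was larger than the SD of the controls and smaller than that of AAV8-Test. With the DESeq2 size factors the means were 2755 ± 144 and 2570 ± 202 CPM (SD over 5 livers a group). AAV8-Test replicate 5 was the lowest library under all 3. The highest was AAV8-Control replicate 2 with either set of scaling factors and AAV8-Control replicate 1 without mitochondrially encoded genes. Without AAV8-Test replicate 5 the log2 ratio of the means shrank from -0.083 to -0.041, and without AAV8-Test replicate 3 it grew to -0.13.

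The sums of both subunits overlapped between the groups. The 46 genes of the large subunit summed to 1528 ± 92.7 CPM in the controls and 1448 ± 129 CPM with AAV8-Test, and the 31 of the small subunit to 1098 ± 84.9 and 1034 ± 107 CPM (SD over 5 livers a group). The ratio of the large to the small subunit sum was 1.36 to 1.42 in the controls and 1.37 to 1.43 in AAV8-Test. The close relatives summed to 118 ± 3.67 and 109 ± 9.58 CPM.

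**Figure D2:**
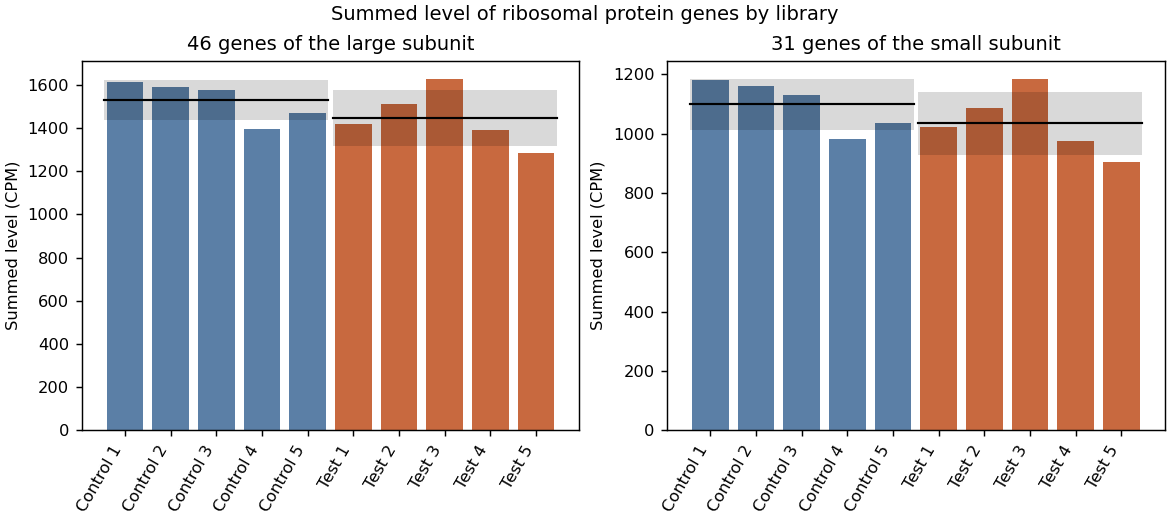
Summed CPM of the large subunit genes (left) and of the small subunit genes (right) in each library, blue for AAV8-Control and orange for AAV8-Test; the black line is the group mean and the grey band 1 SD either side. In both panels AAV8-Test replicate 3 is the highest and AAV8-Test replicate 5 the lowest library.

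Gene by gene, 69 of the 87 averaged 1 CPM or more and were tested with limma on log2(CPM + 1), a scale that understates the change of genes near 1 CPM. The 18 others had means from 0.00777 to 0.983 CPM: 11 subunit genes (*Rpl19*, *Rpl23a*, *Rpl24*, *Rpl36*, *Rps6*, *Rps12*, *Rps13*, *Rps23*, *Rps27*, *Rps29* and *Rpsa*), the relatives *Rpl3l*, *Rpl22l1*, *Rpl39l* and *Rps27rt*, and the 3 with names of pseudogene form. The log2 fold change was below 0, that is lower in AAV8-Test, for 57 of the 69 genes (82.6%), against 44.1% of all 11027 genes tested. The median log2 fold change of the 69 genes was -0.087, and that of all genes tested was 0.019. Values ranged from -0.29 for *Rpl38* to 0.20 for *Rpl27*, with a middle range of -0.13 to -0.034, and the median standard error (SE) was 0.096.

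No ribosomal protein gene had an adjusted p under 0.05 (limma with Benjamini-Hochberg adjustment over all genes tested; 0 of 69, against 0.0181% of all genes, the lowest adjusted p being 0.617). edgeR and DESeq2 on the recovered reads also called 0. An unadjusted p under 0.05 was found for 3 lower genes, *Rps15a*, *Rpl22* and *Rps27l*, which is 4.35% of the 69 against a background of 2.97% of all genes tested in that direction. It was found for 0 higher genes, against 4.99%. In no gene did the groups fail to overlap, where 0.435% of all genes tested lay wholly lower and 0.472% wholly higher in AAV8-Test. In either direction, the unadjusted calls came to 7 genes with edgeR and TMM, beside 9.11% of all genes, and to 7 with DESeq2, beside 9.17%. They came to 9 without AAV8-Test replicate 3 (6.23% of all genes) and 5 without AAV8-Test replicate 2 (12.6%), but to 1 without AAV8-Control replicate 1 (9.9%), AAV8-Test replicate 4 (5.29%) or AAV8-Test replicate 5 (4.26%).

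**Figure D3:**
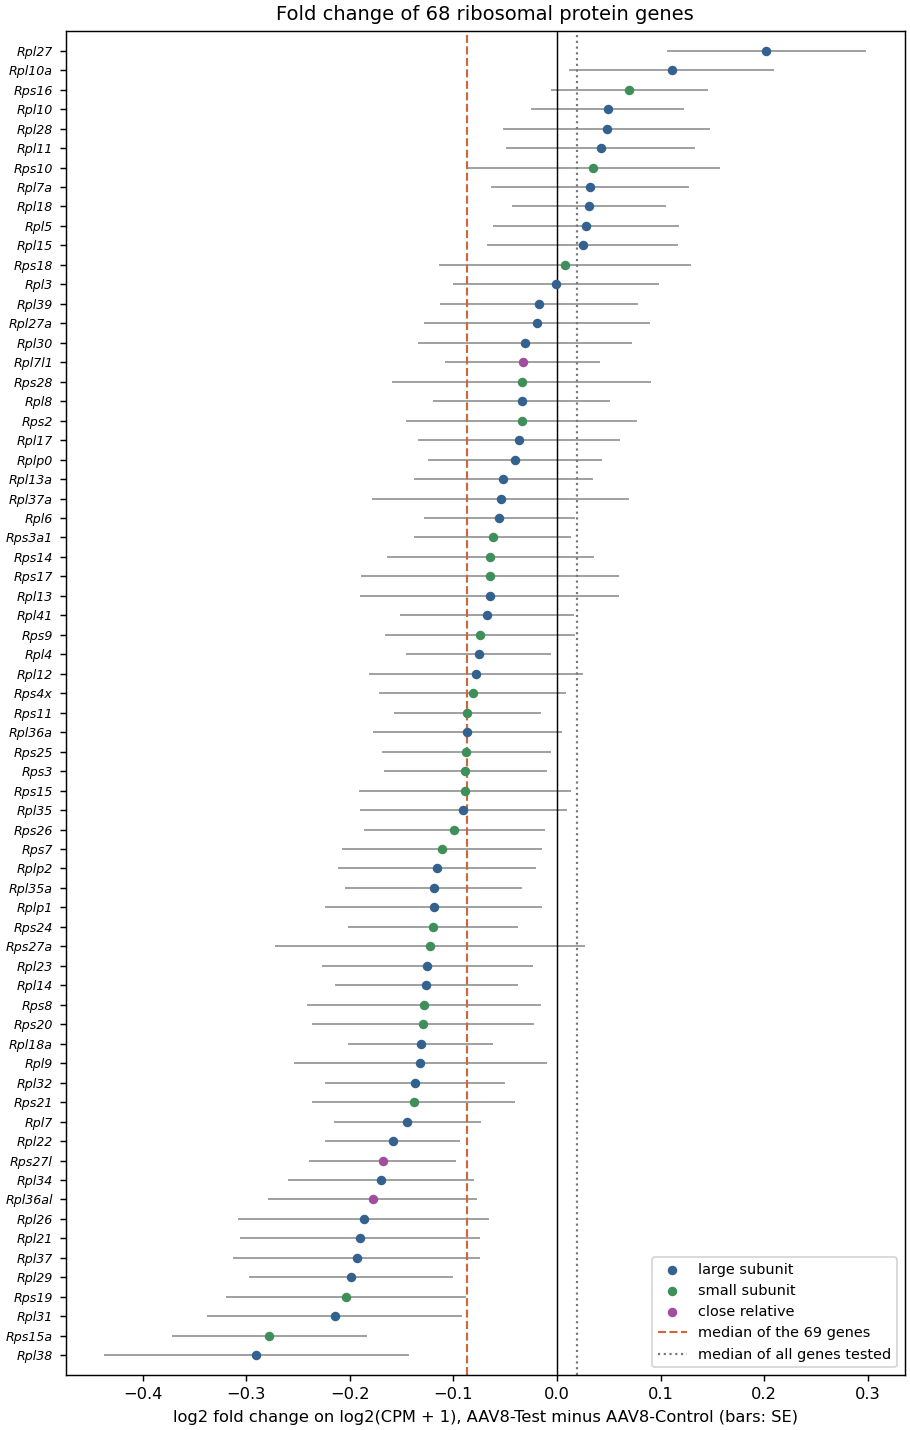
Log2 fold change of 68 of the 69 tested genes on log2(CPM + 1), AAV8-Test minus AAV8-Control, with the standard error as bars, ordered by value and coloured by subunit or kind. Of the points, 56 lie left of 0; the dashed line is the median of all 69 genes, -0.087, and the dotted line the median of all genes tested, 0.019.

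The large subunit had 33 of 42 tested genes lower, with a median log2 fold change of -0.072. The small subunit had 21 of 24 lower, with a median of -0.088, and all 3 tested relatives were lower. Among the 16 genes that averaged 50 CPM or more, for which counting error is least, 16 were lower, with a median log2 fold change of -0.081. Of the 37 genes from 5 to 50 CPM 30 were lower, and of the 16 genes under 5 CPM 11 were. By own share, 20 of the 20 tested subunit genes with 60% or more were lower (median -0.092), as were 28 of 34 between 20 and 60% (median -0.085) and 6 of 12 under 20% (median 0.0033).

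*Rps15a*, a protein of the small subunit, had the smallest p. It was at 12.97, 13.6, 12.8, 11.5 and 12.9 CPM in the controls and at 10.4, 12.2, 9.79, 11.3 and 8.34 CPM in AAV8-Test. Only AAV8-Test replicate 2 lay within the control range. The means were 12.8 ± 0.754 and 10.4 ± 1.47 CPM (SD over 5 livers a group), a difference of -18.4%, and limma gave -0.28 on the log2 scale (SE 0.094, adjusted p = 0.617). The two-sided exact permutation test of this single gene, over all 252 assignments of the libraries, gave p = 0.0159, where the smallest possible is 0.00794.

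*Rpl22* was at 72.5, 72.8, 71.1, 65.4 and 65.1 CPM in the controls and at 64.4, 66.4, 63.6, 59.7 and 56.2 CPM in AAV8-Test. The highest AAV8-Test library passed the 2 lowest controls. Its log2 fold change was -0.16 (SE 0.065, exact permutation p = 0.0317). *Rps27l*, whose values are given above, is a target of p53 as well as a ribosomal protein, and had a change of -0.17 on the log2 scale (SE 0.071, exact permutation p = 0.0238). *Rpl7*, an rRNA-binding protein of the large subunit, was at 53.0 ± 2.48 and 48.0 ± 4.34 CPM (SD over 5 livers a group). Its log2 fold change was -0.14 (exact permutation p = 0.0476). *Rpl29*, at the surface of the large subunit, was at 9.47 ± 0.975 and 8.14 ± 1.12 CPM, with a log2 fold change of -0.20 (exact permutation p = 0.0794). These 5 genes had the smallest p among those lower in AAV8-Test, and each adjusted p from limma was between 0.617 and 0.622.

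The 5 higher genes with the smallest p were *Rpl27*, *Rpl10a*, *Rps16*, *Rpl10* and *Rpl28*. *Rpl27* was at 2.87, 2.89, 2.87, 3.03 and 2.56 CPM in the controls and at 2.82, 3.48, 4.22, 3.56 and 3.14 CPM in AAV8-Test. All AAV8-Test libraries but replicate 1 lay above the control range. Its change was 0.20 on the log2 scale (SE 0.097, adjusted p = 0.617 in limma, exact permutation p = 0.0397), at 53 to 102 reads per library. *Rpl10a* was at 4.98 ± 0.383 CPM in the controls and 5.48 ± 0.770 CPM with AAV8-Test (SD over 5 livers a group, exact permutation p = 0.262). *Rps16* was at 10.9 ± 0.783 and 11.5 ± 0.801 CPM, *Rpl10*, a protein that joins the large subunit late, at 4.47 ± 0.166 and 4.66 ± 0.283 CPM, and *Rpl28* at 2.51 ± 0.326 and 2.62 ± 0.334 CPM. In these 3 the groups differed by less than 1 SD of the AAV8-Test libraries.

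The P stalk is the lateral arm of the large subunit that recruits translation factors. Its base is *Rplp0*, also called 36B4, a common reference gene in qPCR. The study lists primers for it, and several of its legends name 36B4 as the gene used to normalize liver qPCR. *Rplp0* was at 161, 166, 154, 135 and 148 CPM in the controls and at 146, 149, 174, 146 and 128 CPM in AAV8-Test. As in the sums, AAV8-Test replicate 3 was highest and replicate 5 lowest. The means were 153 ± 11.9 and 149 ± 16.5 CPM (SD over 5 livers a group), a difference of -2.56%, and the log2 fold change was -0.040 (SE 0.084, exact permutation p = 0.651). It stayed below 0 under each scaling tried and turned to 0.011 without AAV8-Test replicate 5. *Rplp1* was at 135, 126, 110, 106 and 108 CPM in the controls and at 95.5, 120, 127, 109 and 89.7 CPM in AAV8-Test, giving a change of -0.12 on the log2 scale (SE 0.10). This was -0.066 without AAV8-Control replicate 1, -0.077 without AAV8-Test replicate 1, -0.055 without AAV8-Test replicate 5 and -0.18 without AAV8-Test replicate 3. *Rplp2*, its partner in the stalk, was at 14.3 ± 0.985 and 13.2 ± 1.90 CPM, a change of -0.12 on the log2 scale (SE 0.096). Per length, *Rplp2* was at 32.6 CPM per kb against 226 for *Rplp1*.

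*Rpl5* and *Rpl11* bind 5S rRNA and together hold back MDM2, the ligase of p53, when ribosome assembly is disturbed. *Rpl5* was at 1.44 ± 0.201 and 1.48 ± 0.0635 CPM and *Rpl11* at 1.62 ± 0.136 and 1.70 ± 0.208 CPM (SD over 5 livers a group), with log2 fold changes of 0.028 and 0.042. With each library left out, *Rpl5* ran from 0.00056 (without AAV8-Control replicate 5) to 0.077 (without AAV8-Control replicate 4), and *Rpl11* from 0.00064 (without AAV8-Test replicate 1) to 0.073 (without AAV8-Test replicate 4). Both rest on few reads, 26 to 49 and 32 to 51 per library. *Rps27a*, made as a fusion with ubiquitin, was at 2.23 ± 0.758 and 1.93 ± 0.399 CPM. *Rpl13a*, a phosphorylated regulator of inflammatory mRNAs when free of the ribosome, was at 113 ± 10.8 and 109 ± 11.9 CPM, giving a change of -0.052 on the log2 scale (SE 0.087). Lowest per length among the tested genes, besides *Rpl5* at 0.715 CPM per kb, were *Rpl12* at 1.39 and *Rpl21* at 1.98 CPM per kb. *Rpl12* was at 1.81 ± 0.298 and 1.65 ± 0.199 CPM, and *Rpl21* at 1.97 ± 0.334 and 1.60 ± 0.343 CPM. None of these genes had an exact permutation p under 0.05.

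Of the relatives and their partners not yet compared, *Rpl36al* had a change of -0.18 on the log2 scale (SE 0.10) and *Rpl36a* one of -0.087 (SE 0.091). *Rpl7l1* was at 41.2 ± 2.25 and 40.4 ± 3.92 CPM, *Rpl3* at 9.17 ± 1.16 and 9.17 ± 1.09 CPM, *Rpl39* at 10.7 ± 0.670 and 10.6 ± 1.55 CPM, and *Rps4x* at 19.0 ± 1.94 and 17.9 ± 2.09 CPM (SD over 5 livers a group). *Rpl4* and *Rpl8*, among the highest genes, had log2 fold changes of -0.076 and -0.034 (SEs 0.070 and 0.086). That of *Rpl4* was -0.044 without AAV8-Control replicate 3 and -0.047 without AAV8-Test replicate 5.

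Between livers of a group these genes varied together. AAV8-Test replicate 5 held the lowest value of 44 of the 69 tested genes, and AAV8-Test replicate 3 the highest of 22. The highest value fell in AAV8-Control replicate 2 for 16 genes and in AAV8-Control replicate 1 for 14. The median over the 69 genes of the deviation from each gene's own mean, on log2(CPM + 1), was 0.11, 0.10, 0.078, -0.054 and -0.013 in the controls. It was -0.068, 0.045, 0.15, -0.089 and -0.22 in AAV8-Test. AAV8-Test replicates 3 and 5, of the same group, thus lay farther apart than any pair of controls. With AAV8-Test replicate 5 left out, 48 genes were lower and the median log2 fold change was -0.054. With AAV8-Test replicate 3 left out, 61 were lower and the median was -0.13. Over all genes tested, with every library kept, the median deviation was 0.058, -0.033, -0.020, -0.048 and -0.0079 in the controls. In AAV8-Test it was -0.071, -0.0055, 0.085, 0.027 and 0.0042. AAV8-Test replicate 3 was the highest library there too, and AAV8-Test replicate 1 the lowest. The part of these library-wide levels in the values above was not tested.

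**Figure D4:**
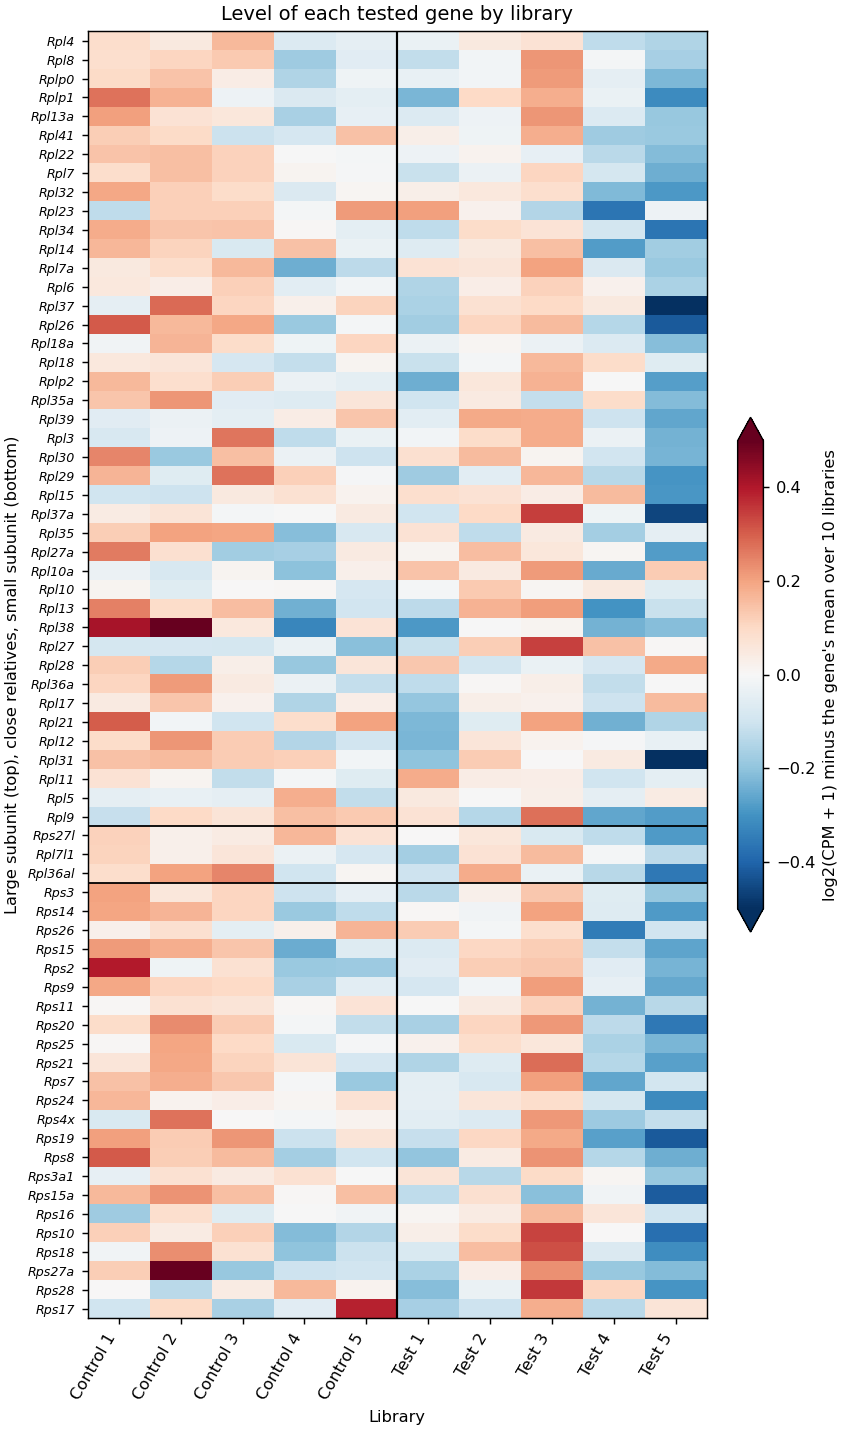
The log2(CPM + 1) of 68 of the 69 tested genes in each library minus the gene's mean over the 10 libraries, red above and blue below the mean, with the controls left of the vertical line and the genes ordered by subunit and mean level. The column of AAV8-Test replicate 5 is blue for most genes (6 of the 68 lie above their own mean), and that of AAV8-Test replicate 3 is red (60 of the 68).

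Transcript length moved with these values. Ribosomal protein mRNAs are short, and other genes with short transcripts were lower in AAV8-Test as well. Of the 702 other tested genes with a principal transcript under 1 kb, 552 (78.6%) were lower, with a median log2 fold change of -0.085. In the class under 0.5 kb the median was -0.12 for 14 ribosomal protein genes and -0.12 for 56 other genes. From 0.5 to 1 kb it was -0.078 for 38 ribosomal protein genes and -0.083 for 646 others, with 76.3% and 78.2% lower. From 1 to 2 kb it was -0.076 for 15 ribosomal protein genes, of which 14 were lower, and -0.029 for 2546 others, of which 61.5% were lower. Other genes of 4 kb or more had a median of 0.089, and 23.5% were lower. By library, the other genes under 1 kb had median deviations of 0.086, 0.066, 0.027, -0.011 and 0.021 in the controls and -0.032, 0.031, 0.043, -0.066 and -0.17 in AAV8-Test, so that AAV8-Test replicate 5 was lowest there too. The share of reads on mitochondrially encoded genes was 9.92 to 11.9% in the controls and 8.15 to 12.9% in AAV8-Test, lowest in AAV8-Test replicate 3. The part of transcript length and of these libraries in the lower levels of ribosomal protein genes was not tested.

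**Figure D5:**
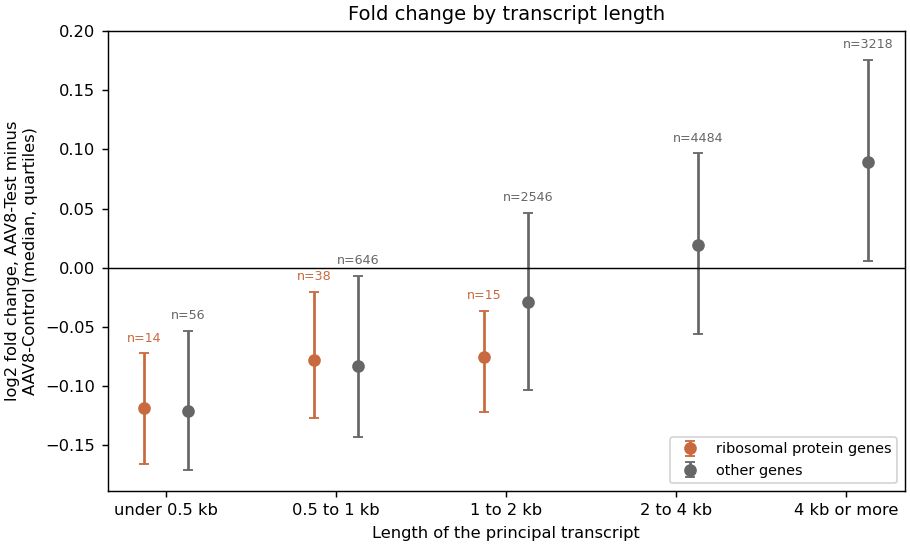
Median log2 fold change with its quartiles (bars), AAV8-Test minus AAV8-Control, by length of the principal transcript, for ribosomal protein genes (orange, classes of at least 3 genes) and other tested genes (grey); n is the number of genes. The medians of the ribosomal protein genes and of other genes lie close together under 1 kb (-0.078 and -0.083 from 0.5 to 1 kb), and those of other genes reach 0.089 at 4 kb or more.

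The ribosomal proteins with other names were also read. *Rack1*, a scaffold on the small subunit, was at 211 ± 15.8 and 197 ± 18 CPM (SD over 5 livers a group), giving a change of -0.10 on the log2 scale (SE 0.077). *Fau* was at 4.77 ± 0.405 and 4.86 ± 0.684 CPM. Other translation genes with a TOP start were lower in 10 of 15, with a median log2 fold change of -0.071. Of these, *Npm1*, a nucleolar chaperone, was at 21.9 ± 1.54 and 19.6 ± 1.74 CPM (log2 fold change -0.16), and *Naca*, of the nascent chain complex, at 23.2 ± 0.463 and 21.3 ± 1.78 CPM. *Eef2*, which moves the ribosome along the mRNA, is the highest of this list and was at 1106 ± 102 and 1139 ± 155 CPM. No gene of these lists had an unadjusted p under 0.05 by limma, where 7.95% of all genes tested had one.

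Genes that make or regulate ribosomes were counted in the same way, beside the 44.1% of all genes tested that were lower; their difference from the ribosomal protein genes was not tested. Of 14 tested genes that control TOP mRNAs and ribosome synthesis 4 were lower and the median was 0.065 on the log2 scale. *Larp1* was at 121 ± 20.1 and 142 ± 20.9 CPM (log2 fold change 0.23, SE 0.12), and *Tsc1*, a brake on mTOR, at 25.3 ± 3.31 and 28.9 ± 2.38 CPM (SD over 5 livers a group, log2 fold change 0.19, SE 0.091). *Mtor* itself was at 56.7 ± 7.86 and 56.5 ± 4.67 CPM. For RNA polymerase I, which transcribes ribosomal RNA, 7 of 14 were lower and the median was 0.019. *Polr1a*, its largest subunit, was at 14.5 ± 1.12 and 16.4 ± 2.95 CPM, and *Taf1c* at 1.27 ± 0.139 and 1.72 ± 0.625 CPM. For 69 tested genes of ribosome assembly, 34 were lower and the median was 0.0081. *Ftsj3*, a methyltransferase of rRNA processing, lay at 28.9 to 30.6 CPM in AAV8-Control and at 31.01 to 32.4 CPM in AAV8-Test, which did not overlap, as in 0.472% of all genes tested (log2 fold change 0.11, adjusted p = 0.622 from limma, exact permutation p = 0.00794). *Rrs1* was at 11.8 ± 0.792 and 13.9 ± 2.15 CPM, the only gene of the assembly list with an unadjusted p under 0.05, beside 4.99% of all genes in that direction. Of the 6 tested chaperones that escort single ribosomal proteins 5 were lower, with a median of -0.064. *Tsr2*, the carrier of Rps26, was at 10.9 ± 0.513 and 9.98 ± 0.561 CPM (exact permutation p = 0.0397), and *Heatr3* at 18.2 ± 0.981 and 17.0 ± 1.24 CPM. No gene of these 4 lists had an adjusted p under 0.05 by limma.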

How the data were processed

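Total RNA of *db/db* liver was poly-A selected and sequenced as single reads of 50 bases, in 10 libraries with 5 per group by the sample labels. The authors aligned the reads with STAR 2.0.4b to the Ensembl release 76 assembly (GRCm38.p2 per the submitters' processing notes) and counted uniquely aligned, unambiguous reads on genes with featureCounts 1.4.5. The authors deposited CPM values (reads of a gene scaled to all reads counted in the library), and 100% of the values were whole multiples of 1 read within 0.05 read, so reads were recovered. Lines that repeat a gene, 110 in all, held the same values and were used once.

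Groups were compared with limma 3.58.1 (trended prior) in R 4.3.3 on log2(CPM + 1), for the 11027 genes that averaged 1 CPM or more, with Benjamini-Hochberg adjustment over all of them. It called 2 genes at adjusted p under 0.05. On the recovered reads, edgeR 4.0.16 with TMM called 2 and DESeq2 1.42.0 called 17. Single genes were also compared by two-sided exact permutation tests. Libraries were taken as separate livers, which the labels do not state, and p-values measure the spread between them. Libraries within groups differed by far more than counting noise (lowest chi-square per degree of freedom 16.8).

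Positions, transcript lengths and shared stretches came from GENCODE M21 (GRCm38), matched by identifier for 86 of the 87 genes. The principal transcript was the shortest of the best APPRIS rank. Start windows came from RefSeq.

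Members and lists were chosen with earlier results of these data known. Members named with values are those with fixed roles, pairs of a gene and its relative, the 5 of smallest p in each direction, any with adjusted p under 0.05 or groups that do not overlap, and the 3 highest and 3 lowest tested per length. Of each other list on ribosomes and translation, the 2 genes of smallest p are named, and so are those of the hepatocyte markers; the other marker lists are given as sums, which departs from the rule. *Alb*, *Ttr*, *Apoa1*, *Lep*, *Fau*, *Rack1*, *Eef2*, *Mtor*, *Rps29*, *Rpl7a*, *Rpl23a* and *Rpl38* were named after their values were seen. Alternatives were a pseudocount of 0.1, no filter, at least 10 reads in every library, other scalings, the replicate number as a block, edgeR, DESeq2, and each library left out. The methods were also run on simulated counts, with planted changes all larger than the largest of a tested ribosomal protein gene (0.29 on the log2 scale). That run therefore does not show whether changes of the size seen here would be called. The transgene of the AAV8-Test group and some genes are not reported here by name, though counts and sums over all members include them.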

Additional observations from a re-analysis of the deposited data

Results flagged for a closer look

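Among 56 groups of 5 libraries checked, those of the 27 named genes that were tested and of the summed level, 3 held a library whose gap to the nearest other exceeded the limit of 0.71 of the group's range; chance gives about 1 in 20. *Rpl3* was at 11.2 CPM in AAV8-Control replicate 3, with the other controls at 8.27 to 8.96 CPM. *Rpl5* was at 1.79 CPM in AAV8-Control replicate 4, with the others at 1.257 to 1.396 CPM. *Rps4x* was at 22.3 CPM in AAV8-Control replicate 2, with the others at 17.3 to 18.6 CPM. The 3 values fell in different libraries.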

How the results depend on the processing

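The count of ribosomal protein genes with an adjusted p under 0.05 was 0 under all 20 alternatives. The count that was lower in AAV8-Test was 57 or 58 of 69 to 72 tested genes under the 9 alternatives that kept all libraries and a filter, 70 of 87 without a filter, and 48 to 61 with each library left out. The median log2 fold change was -0.13 to -0.054 and the log2 ratio of the summed levels -0.13 to -0.041 over the libraries left out. The count with an unadjusted p under 0.05, 3 as reported where 7.95% of all genes tested had one, was 5 without a filter (7.15% of all genes), 6 without mitochondrially encoded genes (8.3%), 7 with TMM scaling (8.9%), 8 with DESeq2 size factors (8.9%), 7 with edgeR and TMM (9.11%), 7 with the DESeq2 Wald test (9.17%), and 1 to 9 with each library left out (4.26 to 13.7%). With the replicate number as a block it was 6 (10.1%). The numbers were not taken as pairing because the labels do not say that they mark a shared animal, litter or batch. Deviations of same-numbered libraries from their group means nonetheless correlated at 0.075 to 0.31, over 0.1 in 4 of 5 pairs. The block also moved the count of all tested genes with an adjusted p under 0.05 from 2 to 5. Whether same-numbered libraries share such a factor was not tested. The groups did not overlap for 0 to 4 genes with each library left out, where 1.12 to 3.54% of all genes tested did not: 4 without AAV8-Test replicate 2 (3.54% of all genes), 2 without AAV8-Control replicate 4 (2.14%), and 1 without AAV8-Test replicate 1, 3 or 4 (2.96, 1.63 and 1.4%). Of 540 values of the 27 named genes under alternatives, 11 turned in sign, all with a library left out. *Rpl3* turned to 0.066 without AAV8-Control replicate 3, and to 0.0024, 0.0064 and 0.058 without AAV8-Test replicates 1, 4 and 5. *Rpl39* turned to 0.015 without AAV8-Control replicate 5, and to 0.0066 and 0.046 without AAV8-Test replicates 4 and 5. *Rps27a* turned to 0.0055 without AAV8-Control replicate 2, *Rpl7l1* to 0.0056 without AAV8-Test replicate 1, and *Rpl8* to 0.0027 and *Rplp0* to 0.011 without AAV8-Test replicate 5. With each library left out the values ranged from -0.047 to 0.066 for *Rpl3*, -0.066 to 0.046 for *Rpl39*, -0.19 to 0.0055 for *Rps27a*, -0.077 to 0.0056 for *Rpl7l1*, -0.094 to 0.0027 for *Rpl8* and -0.099 to 0.011 for *Rplp0*. Of the 27 named genes, 20 moved by over 1.5 times with some library left out; the 7 that did not were *Rps15a*, *Rpl22*, *Rps27l*, *Rpl7*, *Rpl29*, *Rpl21* and *Rpl27*. The cause of these changes was not tested. Reads per library limit the 18 genes under 1 CPM, where 3 reads are 0.0845 to 0.154 CPM.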
